A study of Homo sapiens and Mus musculus with 12 samples.

Results

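The aminoacyl-tRNA synthetases are the enzymes that join each amino acid to its tRNA. They were followed here in the human colorectal carcinoma line RKO and in mouse colon. The members were found by gene symbol: 20 listed cytosolic enzymes and 16 mitochondrial ones whose symbols end in ARS2, 36 in all. In the RKO table, 34 of them (19 cytosolic, 15 mitochondrial) were found among 15590 genes, and VARS and VARS2 were not analysed here. In the mouse table, all 36 were found among 17383 genes. Every member found passed the minimum mean of 1 over the 6 libraries of its table, so none was lost to the filter on low values.

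All 6 RKO libraries came from cells with an integrated shRNA against ZNF280C under a tetracycline-inducible promoter, with 3 grown in 1 ug/ml doxycycline for 72 h and 3 without it. The drug and the shRNA were therefore present together in the treated cells, and their effects cannot be told apart. The sources used here name no other shRNA and no line without one. The 6 colon libraries came from C57BL/6J mice of 12 weeks, 3 labelled Zfp280c knock-out and 3 wild-type, and which part of the colon was taken is not given. Nothing says that the libraries of a group came from separate cultures or animals, so p-values measure only the spread between these libraries. Read depth is unknown for both tables.

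Cells carry a cytosolic set of synthetases, which serves the translation of nuclear-encoded mRNAs, and a mitochondrial set, which serves the few proteins encoded by mitochondrial DNA. Both sets are encoded in the nucleus. Several cytosolic enzymes sit together in the multisynthetase complex. When amino acids run short or the endoplasmic reticulum is stressed, the kinases of the integrated stress response favour translation of the transcription factor ATF4, which binds C/EBP-ATF composite elements and induces many cytosolic synthetase genes with amino acid transporters and asparagine synthetase. GARS (glycine) and KARS (lysine) each supply both compartments from a single gene, and were counted as cytosolic.

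The C/EBP-ATF element, which ATF4 binds, is printed first. Among the classes of synthetase compared here, the RKO libraries differed most in the enzymes reported as ATF4 targets. ATF4 activity was not measured, and a link between the element and that spread was not tested. RefSeq promoter windows (GRCh38.p14, from 250 bases before to 50 bases after a transcript start) were at hand for 30 of the 36 members, in 39 windows. They were searched on both strands for TGATGNAAN, which reads NTTNCATCA on the other strand. Of 16 cytosolic genes with a window, 7 held a match (43.8%), against 1 of 14 mitochondrial genes (7.14%) and 4.45% of all 27305 genes with a window. The 7 were AARS, CARS, GARS, IARS, MARS, NARS and TARS, all of them among the cytosolic enzymes that are reported as ATF4 targets, of which 10 had a window. The mitochondrial match was in YARS2. The lines below give 30 bases around each match, read along the gene's strand with the element in capitals. CARS, IARS and MARS lie outside the naming rule and are shown beside the others, and the NARS stretch is not printed.
AARS: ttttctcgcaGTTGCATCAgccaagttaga
CARS: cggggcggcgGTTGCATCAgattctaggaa
GARS: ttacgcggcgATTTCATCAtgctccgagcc
IARS: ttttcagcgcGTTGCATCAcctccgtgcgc
MARS: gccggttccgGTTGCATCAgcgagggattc
TARS: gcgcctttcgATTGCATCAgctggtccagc
YARS2: tccacactgcTGATGGAAAaattaagttta
In 6 of the 7 cytosolic genes the element reads NTTNCATCA along the gene, and in NARS, as in YARS2, it reads TGATGNAAN. The letters TTGCATCA are shared by AARS, CARS, IARS, MARS and TARS, while GARS carries TTTCATCA. With the start site counted as position 0, the matches lie at -34 to -26 in GARS, at -14 to -6 in IARS, across the start in MARS and CARS, and downstream of it in TARS (1 to 9) and NARS (14 to 22). Those of AARS (-188 to -180) and YARS2 (-197 to -189) lie farther upstream. The printed stretches are chr16:70289675-70289704 (AARS, minus strand), chr11:3057407-3057436 (CARS, minus), chr7:30594834-30594863 (GARS, plus), chr9:92293692-92293721 (IARS, minus), chr12:57488053-57488082 (MARS, plus), chr5:33440956-33440985 (TARS, plus) and chr12:32756075-32756104 (YARS2, minus). A match describes these letters and does not show that a factor binds there.

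Other elements did not divide the enzymes in the same way. The ETS element CCGGAAGT, or ACTTCCGG on the other strand, was found in 5 of 16 cytosolic genes (CARS, HARS, NARS, TARS and WARS) and in 3 of 14 mitochondrial ones (EARS2, HARS2 and PARS2), against 4.95% of all genes. The E-box CACGTG occurred in IARS and in CARS2, EARS2 and MARS2 (8.77% of all genes), and the palindromic NRF1 element in MARS2 (1.52%). HARS and HARS2, the cytosolic and mitochondrial histidine enzymes, are transcribed away from each other on chromosome 5, with 84 bases between their start sites (chr5:140691371-140691454). The same pair of ETS elements therefore falls in both windows, shown once here along the HARS strand.
HARS, upstream element: ccagcttcggcACTTCCGGgaggagccgga
HARS, element at the start site: cgactcgatagCCGGAAGTcatccttgctg
These stretches are chr5:140691436-140691465 and chr5:140691361-140691390 on the minus strand. Whether reads were counted by strand is not given in the sources used here. The HARS and HARS2 start sites used here lie apart, and whether reads of the 2 genes could be confused was not examined.

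The cytosolic mRNAs were the more abundant set. In RKO cells, the deposited signal was divided by the length in kb of the longest GENCODE transcript of each symbol. The cytosolic median was then 4.56 to 5.18 times the mitochondrial median over the 6 libraries. SARS (serine) had the highest mean level at 1813 signal per kb, followed by GARS at 1348, AARS (alanine) at 1142, IARS (isoleucine) at 1127 and WARS (tryptophan) at 985. SARS2, the mitochondrial serine enzyme, was the lowest of the 34 at 10.4. The first 17 places were all cytosolic, and IARS2 was the highest mitochondrial mRNA in place 18. The levels of neighbours in this order often overlapped between libraries, since AARS alone ranged 1.5-fold. The order also depends on the lengths used. Undivided, IARS had the highest mean signal, at 5159 with doxycycline and 5336 without.

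In colon, whose FPKM values are already per length, the cytosolic median was 3.83 to 4.97 times the mitochondrial one. Nars (asparagine) led with a mean of 76.5 FPKM, before Gars at 71.0, Kars at 53.8 and Qars (glutamine) at 47.7, and Ears2, the mitochondrial glutamate enzyme, was lowest at 2.05. Iars2 reached place 7, at 29.8 FPKM. Across 34 members, the rank correlation of mean level between the 2 tables was 0.747, and it was 0.296 within the 19 cytosolic and 0.443 within the 15 mitochondrial enzymes. These are descriptions across genes, which are not independent replicates.

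Set against the mitochondrial enzyme for the same amino acid, the cytosolic mRNA was the higher in all 6 libraries for 15 of 16 pairs in RKO cells and 14 of 17 in colon. The RKO exception was cysteine, where CARS stood at 0.538 to 1.03 times CARS2 per kb. This order depends on the lengths used. Undivided, CARS was above CARS2 in every library but doxycycline replicate 2 (661 against 753 signal). In colon the exceptions were Cars over Cars2 (0.856 to 1.61 times), Farsa over Fars2 (0.567 to 0.779) and Iars over Iars2 (0.329 to 0.414). FARSA and FARSB are the 2 subunits of the cytosolic phenylalanine enzyme, and both were set against FARS2. The isoleucine pair thus stood in opposite order in the 2 tables, since IARS was 3.07 to 3.73 times IARS2 in RKO cells. Serine was the most uneven RKO pair, with SARS at 136 to 235 times SARS2, a ratio that rests on an SARS2 signal of only 18.0 to 23.6.

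The targeted gene checked the labels. ZNF280C stood at 123, 99.7 and 79.1 signal with doxycycline and 193, 172 and 227 without, 51.0% of the untreated mean (log2 fold change -0.98 ± 0.15 SE, adjusted p = 0.0276, limma), a call kept without doxycycline replicate 1 and lost without any other 1 library (adjusted p up to 0.0922). Zfp280c stood at 0.09, 0.09 and 0.22 FPKM across the knock-outs, against 2.48, 2.25 and 3.17 across the wild types, 5.06% of wild-type (-1.67, adjusted p = 0.123, and 0.00205 without wild-type replicate 2). The -1.67 is a difference of log2(FPKM + 1), which the added 1 makes smaller than the log2 of that percentage at such low levels. Neither set of groups overlapped (exact two-sided permutation p = 0.1 in both, the smallest that 3 against 3 allows). Over all 15590 RKO genes 60 were called higher and 118 lower at an adjusted p under 0.05, a split of 72 and 59 with median centring. Leaving out any 1 library left at most 9 higher and 15 lower. In RKO cells the epithelial genes CDX2, KRT8, KRT18, EPCAM and VIL1 all had signal, and the other 3 of 8 listed markers were not analysed there. All 8 were found in colon.

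The RKO table is marked by its depositors as adjusted with ComBat, a batch correction, and it holds pairs of libraries with exactly equal values. Doxycycline replicate 2 and untreated replicate 2 shared 310 such values, and doxycycline replicate 3 and untreated replicate 1 shared 526. All other RKO pairs shared 0, which leaves doxycycline replicate 1 and untreated replicate 3. Across all genes, deviations from the group means were opposed within these pairs (r = -0.531, -0.336 and -0.283), so that a gene below its group mean in one library of a pair tended to lie above it in the partner. Which libraries were treated as a batch is not given in the sources used here, and the part of the adjustment in the results below was not tested. In colon, wild-type replicate 2 stood with the knock-outs on the first principal component, which held 77.7% of the variance.

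With doxycycline in RKO cells, no synthetase passed the test. Of the 34 members 0 were called in limma, where 1.14% of all genes were (0.385% higher and 0.757% lower); 4 had an unadjusted p under 0.05 (17.0% of all genes). The 19 cytosolic log2 fold changes ran from -0.21 (CARS) to 0.04 (FARSA) with a median of -0.05, 14 of them negative. The 15 mitochondrial ones ran from -0.14 (YARS2) to 0.10 (PARS2) with a median of -0.0008, 8 of them negative. Over all genes the median was -0.01, and 44.9% were positive. CARS, FARSA and PARS2 are named after their values were seen, as the ends of these ranges. The groups did not overlap in 5 members, which compares with 21.9% of all genes: KARS, DARS and RARS2 lay lower (13.3% of all genes) and CARS2 and PARS2 higher (8.65%).

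**Figure D1:**
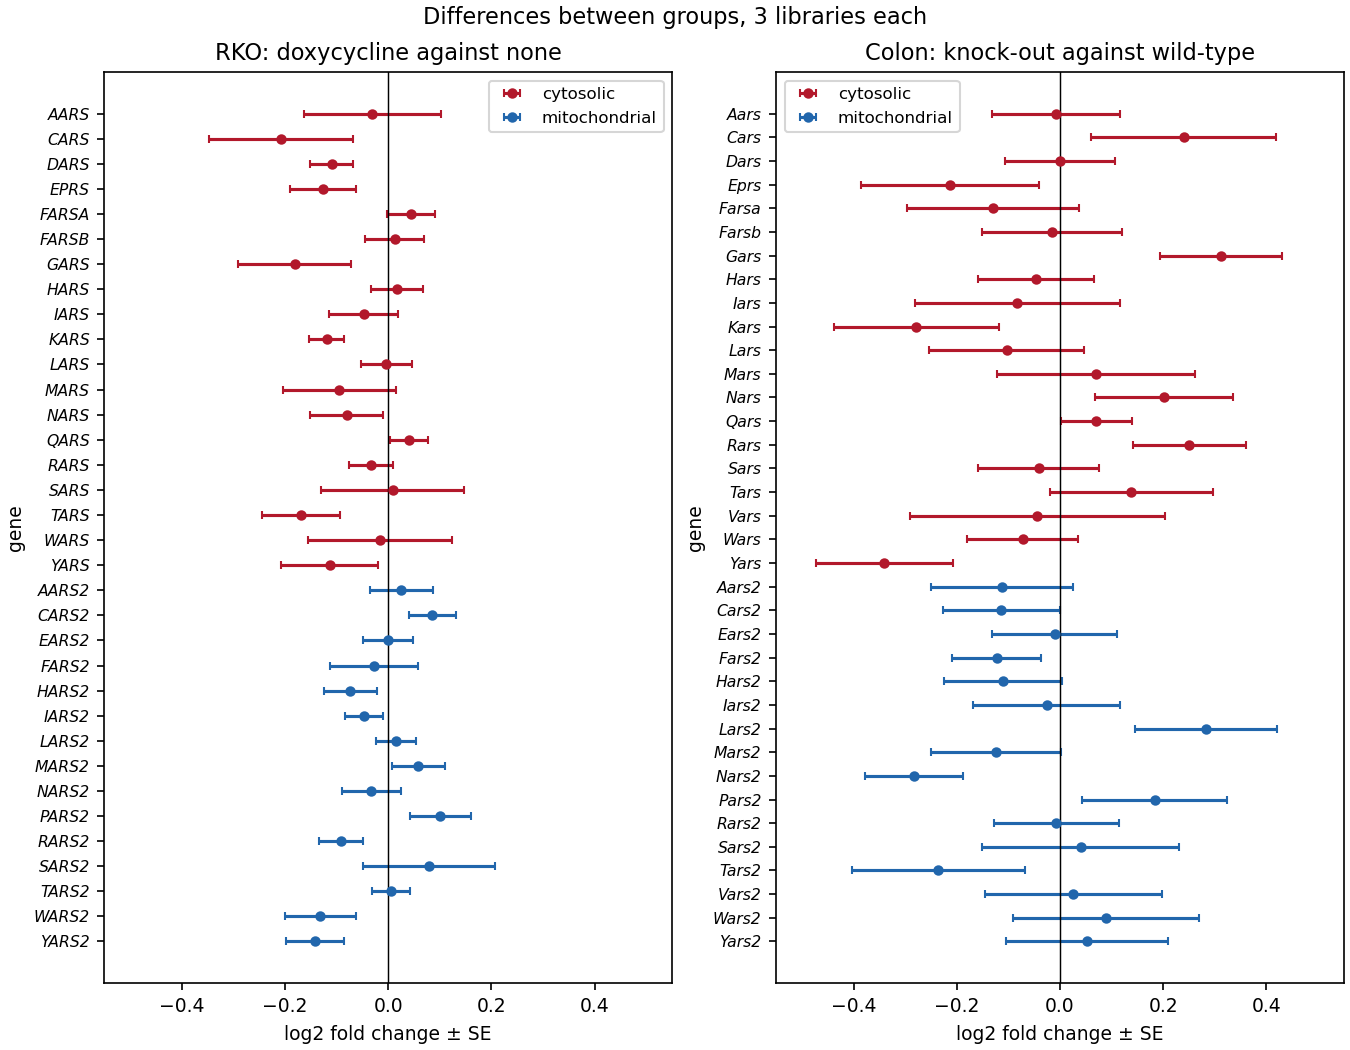
Log2 fold change with its SE (x axis) for each synthetase gene (y axis), in RKO cells with against without doxycycline (left) and in knock-out against wild-type colon (right), 3 libraries per group. Cytosolic genes are red and mitochondrial genes blue. The RKO points lie between -0.21 and 0.10 and the colon points between -0.34 and 0.31, and 0 of them passed the test.

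Among the cytosolic enzymes, KARS, the lysine enzyme, had the lowest p. KARS stood at 1981, 1893 and 1980 signal with doxycycline and 2138, 2104 and 2116 without. Its highest treated library was still under the lowest untreated one, with a log2 fold change of -0.12 ± 0.034 (SE; adjusted p = 0.115, limma) and a 95% interval of -0.19 to -0.044. DARS, the aspartate enzyme, stood at 783, 743 and 805 signal with doxycycline and 822, 834 and 859 without. Its groups did not overlap either, but the step between them was small (-0.11 ± 0.042, adjusted p = 0.221; -0.05 with the GC trend removed). KARS and DARS are both in the multisynthetase complex. Of that complex's 8 enzymes, 7 had negative log2 fold changes (median -0.07) and 0 were called, and so were 0 of its 3 scaffold genes: EEF1E1 (-0.18), AIMP2 (0.09) and AIMP1 (-0.04).

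TARS, the threonine enzyme, showed another pattern. TARS stood at 1900, 1550 and 1814 signal with doxycycline and 1946, 2133 and 1829 without. Doxycycline replicate 2 was lowest and untreated replicate 2 highest, the other 4 libraries lay between 1814 and 1946, and the groups overlapped (log2 fold change -0.17 ± 0.076, adjusted p = 0.289). EPRS, which joins glutamate and proline to their tRNAs, stood at 3539, 2954 and 3230 signal with doxycycline and 3475, 3760 and 3360 without. The same libraries formed its ends (-0.13 ± 0.064, adjusted p = 0.356). GARS stood at 3683, 2753 and 3562 signal with doxycycline and 3705, 4256 and 3340 without. The 2 libraries numbered 2 were again the ends, while doxycycline replicates 1 and 3 lay inside the untreated range (-0.18 ± 0.11, adjusted p = 0.448, 95% interval -0.42 to 0.061). Without doxycycline replicate 2 the differences were -0.08 for TARS, -0.06 for EPRS and -0.05 for GARS, and without untreated replicate 2 they were -0.11, -0.08 and -0.09.

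AARS, the alanine enzyme, stood at 4714, 3152 and 3958 signal with doxycycline and 3653, 4675 and 3671 without. Here doxycycline replicate 1 was the highest library, just above untreated replicate 2, and the group difference was -0.031 ± 0.13 (adjusted p = 0.941, 95% interval -0.33 to 0.26), positive without doxycycline replicate 2 (0.12) or untreated replicate 2 (0.09). WARS, the tryptophan enzyme, stood at 3665, 2339 and 3128 signal with doxycycline and 3034, 3434 and 2665 without. Its order of libraries was close to that of AARS, with a difference of -0.017 ± 0.14 (adjusted p = 0.969) that was also positive without one or the other (0.16 and 0.07). HARS, the histidine enzyme, stood at 1345, 1235 and 1175 signal with doxycycline and 1265, 1238 and 1202 without. It lacked that pattern: doxycycline replicate 2 lay in the middle of a narrow range (0.017 ± 0.050, adjusted p = 0.913; negative without doxycycline replicate 1 or untreated replicate 3).

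**Figure D2:**
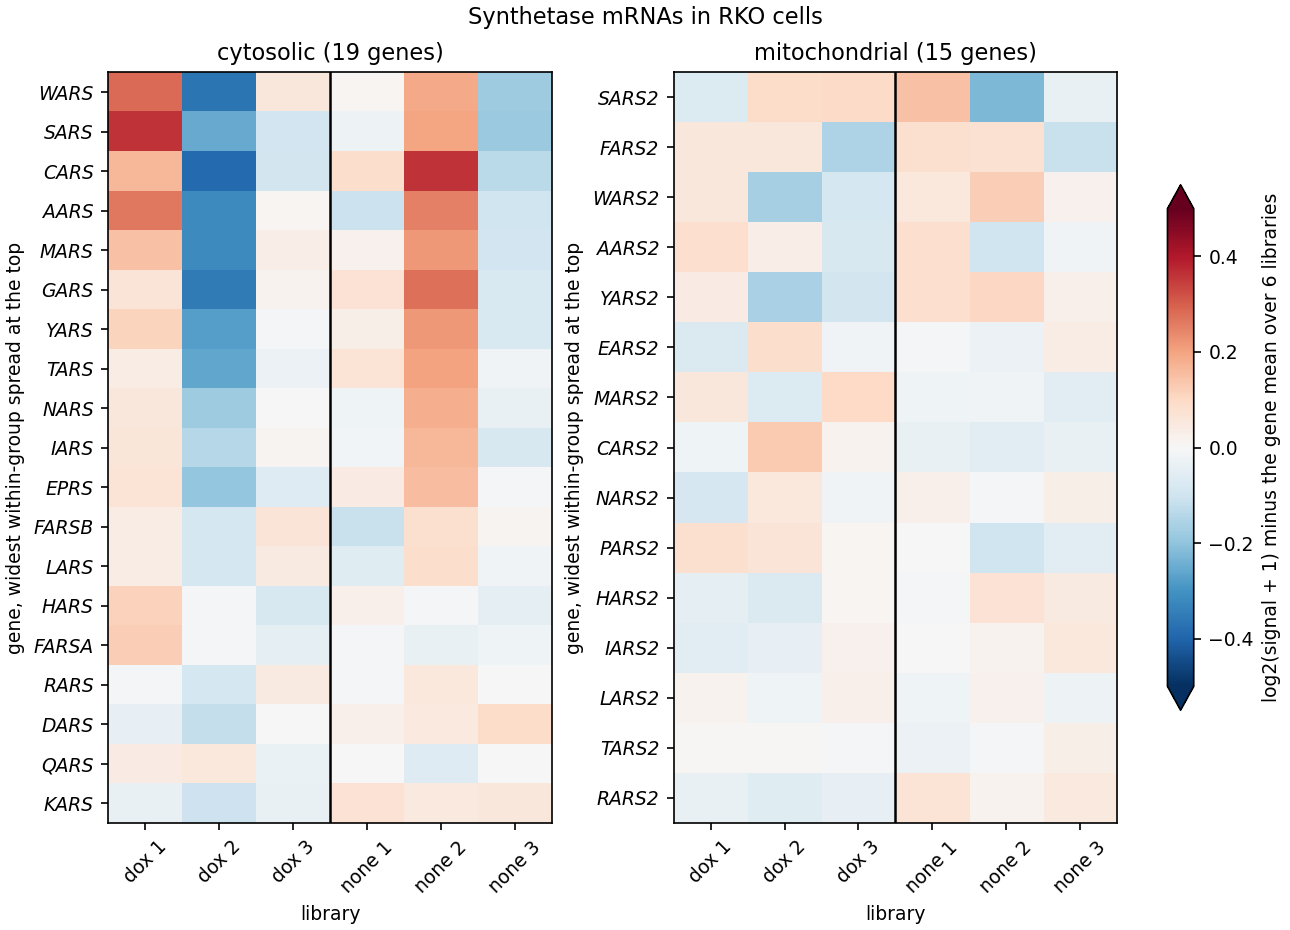
Deviation of log2(signal + 1) from each gene's mean over the 6 RKO libraries (colour), for the 19 cytosolic (left) and 15 mitochondrial (right) synthetases in rows and the libraries in columns (dox, with doxycycline; none, without), with the widest within-group spread at the top. In the upper cytosolic rows doxycycline replicate 2 is blue and untreated replicate 2 red, while of the mitochondrial rows only HARS2, WARS2 and YARS2 have their lowest and highest values in those libraries.

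The spread between libraries of the same group, taken as the within-group SD of log2(signal + 1), differed between classes of enzyme. It exceeded the group difference in size in 15 of 19 cytosolic and 8 of 15 mitochondrial members (not computed over all genes). It is a spread of single libraries, and the difference is between means of 3, so this SD is often the larger without a group effect. Its median was 0.19 over the 12 measured cytosolic enzymes that are reported ATF4 targets (0.08 to 0.27), 0.05 over the 7 other cytosolic enzymes (0.03 to 0.09) and 0.06 over the mitochondrial ones (0.02 to 0.15). Over all genes the median was 0.08. In the 7 cytosolic enzymes with a C/EBP-ATF match, all of them in the first group, the median was 0.20. The width did not follow the match gene by gene: WARS (0.27) and SARS (0.26), with a window and no match, were the widest of the 34, and YARS2, the mitochondrial match, stood at 0.079. Without the libraries numbered 2 of both groups, the 3 class medians were 0.08, 0.04 and 0.04. That pair was left out because it held most extremes of the first class, so the narrowing of that class was largely set by the choice. All 3 medians fell, and the first class stayed the widest. The median over all genes without that pair is not given here.

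**Figure D3:**
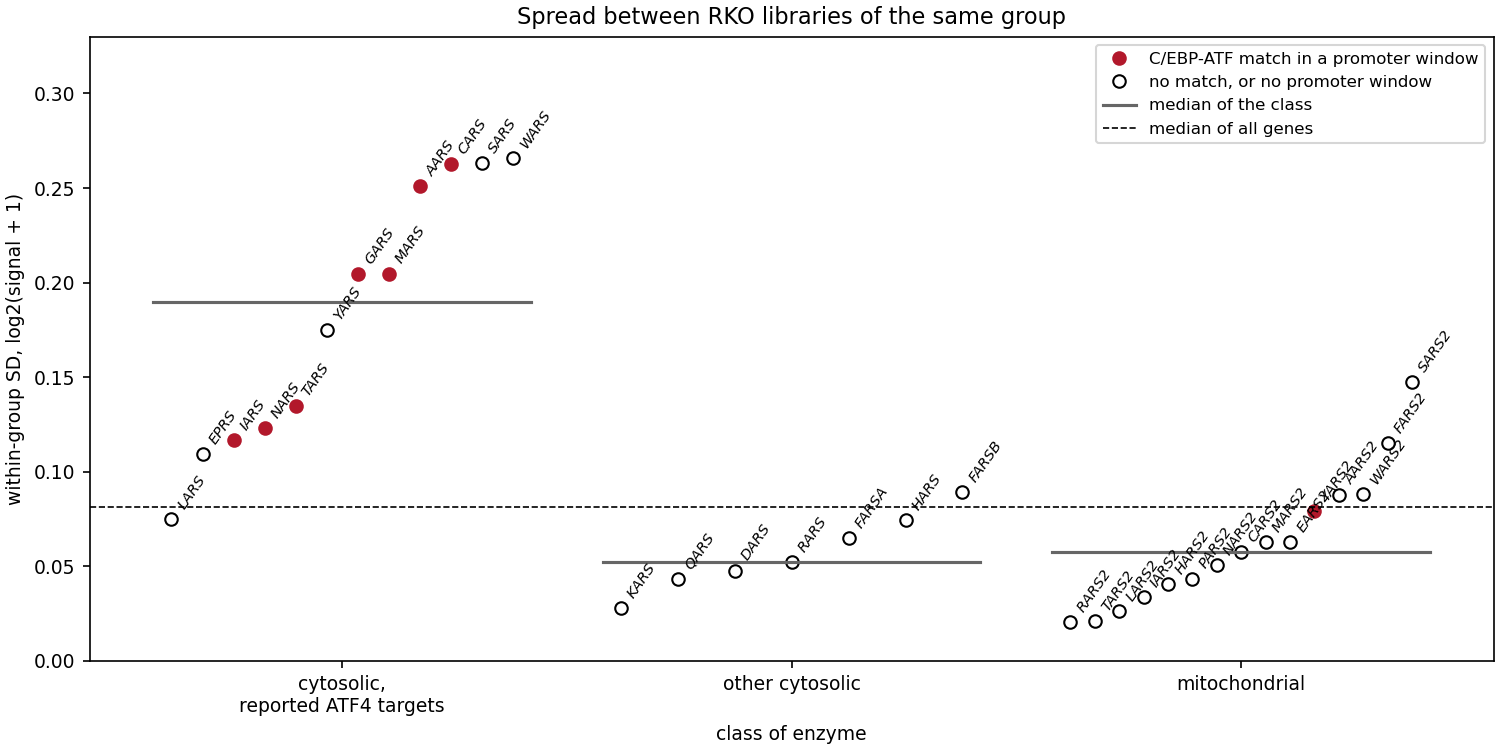
Within-group SD of log2(signal + 1) in RKO cells (y axis) for each synthetase, by class (x axis). Red points have a C/EBP-ATF match in a promoter window, grey bars are class medians (0.19, 0.05 and 0.06 from left to right), and the dashed line is the median of all genes, 0.08. All but LARS of the 12 reported ATF4 targets lie above the line.

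The same libraries were the extremes for gene after gene. Doxycycline replicate 2 was the lowest of the 6 libraries for all 12 measured ATF4-target synthetases, and untreated replicate 2 was the highest for 9 of them. Doxycycline replicate 1 was the highest for the remaining 3, AARS, SARS and WARS. The libraries numbered 2 had opposed deviations across all genes (r = -0.531), so their low and high counts are not separate observations. How often each library was the extreme over all genes was not computed. For the 15 mitochondrial enzymes the lowest library was doxycycline replicate 2 in 5, untreated replicate 2 in 4 and doxycycline replicate 1 in 3, with 1 each in the others. The highest over the lowest library had a median of 1.43-fold over the ATF4 targets, reaching 1.68-fold in CARS, and of 1.12-fold over the mitochondrial enzymes.

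Averaged over members, the cytosolic enzymes deviated from their untreated means by 0.07, -0.22 and -0.04 (log2) in the treated libraries and by -0.03, 0.11 and -0.08 in the untreated ones. The mitochondrial enzymes deviated by -0.01, -0.01 and -0.02, and by 0.02, -0.01 and -0.01. Cytosolic minus mitochondrial was 0.07, -0.21 and -0.02 with doxycycline and -0.05, 0.12 and -0.07 without. The 2 groups overlapped on this measure, with a treated and an untreated library at the ends. The ATF4 targets alone deviated by 0.09, -0.31 and -0.05 against -0.04, 0.16 and -0.13. The difference between the class medians of log2 fold change was -0.05, and it was positive without doxycycline replicate 2 (0.05) or untreated replicate 2 (0.0051).

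Many other genes of the amino acid response were also lowest in doxycycline replicate 2. Over 18 such genes the mean deviation was -0.02, -0.46 and -0.16 with doxycycline and -0.11, 0.15 and -0.04 without, and doxycycline replicate 2 was the lowest library for 14 of the 18. The highest was untreated replicate 2 in 9, doxycycline replicate 1 in 5, untreated replicate 3 in 3 and doxycycline replicate 2 in 1, EIF2AK4, the kinase that senses uncharged tRNA. ATF4 itself stood at 2945, 2147 and 2711 signal with doxycycline and 2701, 3204 and 2522 without. Its lowest and highest libraries were those of the synthetases, and its group difference was -0.12 ± 0.11 (adjusted p = 0.663). ASNS, asparagine synthetase, stood at 3712, 2288 and 3201 signal with doxycycline and 3157, 3869 and 2775 without (adjusted p = 0.802). TRIB3, a pseudokinase induced by ATF4, stood at 1465, 579.7 and 1108 signal with doxycycline and 1049, 1759 and 1111 without (adjusted p = 0.574). ASNS and TRIB3 were chosen after their values were seen, to show this order, and other genes of the list went another way. ATF3 and DDIT3 were highest in untreated replicate 3, and DDIT3 was lowest in doxycycline replicate 3. The lowest ATF3 value was shared by doxycycline replicate 3 and untreated replicate 1. EIF2AK3 and EIF2AK4 were lowest in doxycycline replicate 1.

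In the treatment contrast, 15 of the 18 response genes were negative (median -0.19) and 1 was called, where 44.9% of all genes were positive. Many response genes shared their extreme libraries, so their signs are not separate observations. DDIT4, an inhibitor of mTORC1, stood at 408, 315 and 394 signal with doxycycline and 508, 558 and 533 without. It fell by 0.52 on the log2 scale (adjusted p = 0.0335, limma) and its groups did not overlap, but the call ended in 4 of 6 fits without 1 library (without doxycycline replicate 3 or any 1 untreated library; adjusted p up to 0.136). It also ended with the replicate number as a block in the fit (adjusted p = 0.0991), and with a block on libraries sharing equal values (0.193). PSAT1 of serine synthesis (-0.42, adjusted p = 0.101) and MTHFD2 of mitochondrial folate metabolism (-0.32, adjusted p = 0.148) did not pass. All 9 amino acid transporters were negative (median -0.17) and 0 were called, including SLC3A2 (-0.31, adjusted p = 0.129), its partner SLC7A5 (-0.48, adjusted p = 0.172) and SLC38A2 (-0.18, adjusted p = 0.173). Their mean deviation was -0.04, -0.52 and -0.12 with doxycycline and -0.08, 0.24 and -0.17 without.

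**Figure D4:**
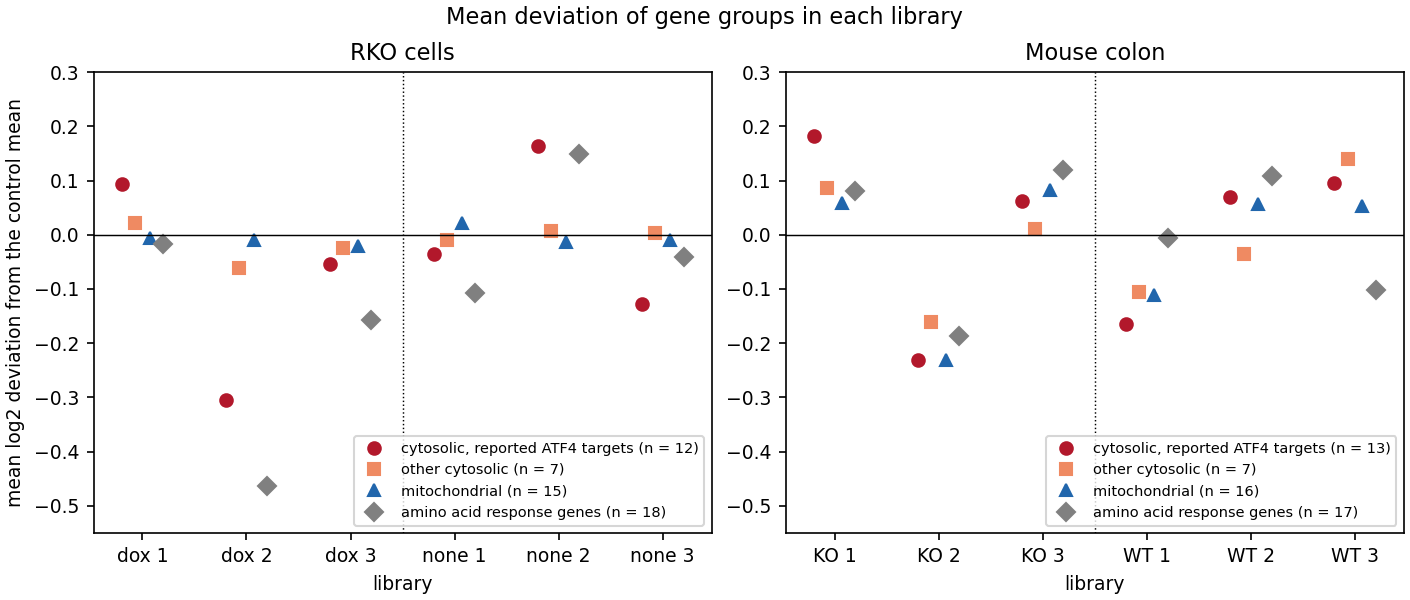
Mean log2 deviation from the control mean (y axis) of 4 gene groups in each library (x axis), in RKO cells (left; dox, with doxycycline; none, without) and mouse colon (right; KO, knock-out; WT, wild-type). In RKO cells the ATF4 targets reach -0.31 and 0.16 while the mitochondrial enzymes stay between -0.02 and 0.02. In colon both classes are lowest in knock-out replicate 2.

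Within the 3 pairs of RKO libraries set out by equal values, the ATF4-target synthetases disagreed in direction. All 12 were lower with doxycycline in the replicate 2 pair (median log2 ratio -0.48), 6 were lower and 6 higher in the next (-0.01), and all 12 were higher in the pair left over (0.17). The means of the 2 deviations in each pair lay close together, at -0.07, -0.04 and -0.02. The 15 mitochondrial enzymes split 7 higher and 8 lower, 7 and 8, and 8 and 7 across the same pairs. The same sign in every pair was held by 5 members, the same 5 whose groups did not overlap. Groups without overlap give the same sign in every pair by construction, so this is not a separate observation. The share of all genes with the same sign in every pair was not computed.

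The mitochondrial enzymes of RKO cells lay in narrow ranges. YARS2, the tyrosine enzyme and the mitochondrial gene with an element match, stood at 444, 385 and 405 signal with doxycycline and 457, 463 and 438 without. Doxycycline replicates 2 and 3 lay below every untreated library and replicate 1 did not (-0.14 ± 0.056, adjusted p = 0.233). RARS2, the arginine enzyme, stood at 313, 308 and 312 signal with doxycycline and 337, 325 and 332 without. Its groups did not overlap, at a difference of -0.091 ± 0.043 (adjusted p = 0.325) with a 95% interval of -0.19 to 0.0049, and of -0.034 with the GC trend removed. WARS2, the tryptophan enzyme, stood at 165, 141 and 149 signal with doxycycline and 165, 172 and 161 without. Its doxycycline replicate 1 lay among the untreated libraries (-0.13 ± 0.069, adjusted p = 0.377).

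AARS2, the alanine enzyme, stood at 388, 375 and 346 signal with doxycycline and 388, 341 and 361 without. The groups overlapped throughout (0.025 ± 0.061, adjusted p = 0.888; it was -0.01 without doxycycline replicate 1 and -0.019 without untreated replicate 2). HARS2, beside HARS on the chromosome, stood at 225, 221 and 234 signal with doxycycline and 231, 244 and 239.6 without. It was lowest and highest in the libraries numbered 2, as YARS2 and WARS2 were, but within a 1.11-fold range (-0.073 ± 0.051, adjusted p = 0.515). CARS2 (0.085 ± 0.046, adjusted p = 0.390) and PARS2 (0.10 ± 0.059, adjusted p = 0.431), the cysteine and proline enzymes, were the members that lay higher with doxycycline in every library. Pair by pair, the cytosolic over mitochondrial ratio was lower with doxycycline in 10 of 16 pairs, and only EPRS over PARS2 did not overlap, at 11.4, 9.59 and 10.9 against 11.8, 13.7 and 11.8. The share of other gene ratios without overlap was not computed, and for single genes it was 21.9%.

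Around the synthetases, 1 gene of tRNA supply passed in RKO cells. TSEN15, a subunit of the endonuclease that removes introns from tRNA precursors, stood at 315, 298 and 297 signal with doxycycline and 366, 357 and 350.2 without. It fell by 0.24 on the log2 scale (adjusted p = 0.0459, limma), the only 1 of 14 tRNA maturation genes to be called. The call ended without any 1 of the 6 libraries (adjusted p 0.0706 to 0.163), and at equal sums (0.0555), median centring (0.0603), quantile normalization (0.0681) or removal of the GC trend (0.139). It ended too with the replicate number as a block (0.13) and with a block on libraries sharing equal values (0.257). Of 10 genes that assist charging or clear mischarged tRNA, 0 were called. Of 4 cytosolic and 4 mitochondrial elongation factor genes 0 were called, TSFM of mitochondria among them (-0.17, adjusted p = 0.172).

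In colon, knock-out and wild-type libraries did not differ in any synthetase by the test, and single libraries moved cytosolic and mitochondrial enzymes together. Of the 36 members 0 were called, as were 0.0% of all 11366 genes tested; 3 members (Nars2, Gars and Yars) and 12.5% of all genes had an unadjusted p under 0.05. The 20 cytosolic log2 fold changes ran from -0.34 (Yars) to 0.31 (Gars) with a median of -0.03, 13 of them negative. The 16 mitochondrial ones ran from -0.28 (Nars2) to 0.28 (Lars2) with a median of -0.02, 10 of them negative. Over all genes the median was -0.02, and 44.6% were positive. The groups did not overlap in 3 members (16.9% of all genes), Gars and Rars higher (7.13%) and Nars2 lower (9.79%). In tissue libraries, fewer cells of a type and less RNA per cell cannot be told apart.

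Knock-out replicate 2 was the lowest library for 13 of 20 cytosolic and 12 of 16 mitochondrial enzymes. Its share of lowest values over all genes was not computed. The cytosolic mean deviation was 0.15, -0.21 and 0.04 across the knock-outs, against -0.14, 0.03 and 0.11 across the wild types, and the mitochondrial one was 0.06, -0.23 and 0.08 against -0.11, 0.06 and 0.05. Both classes were thus low in knock-out replicate 2 and wild-type replicate 1, and cytosolic minus mitochondrial stayed between -0.04 and 0.09 in all 6 libraries. Knock-out replicate 2 was also low for MYC with nucleolar genes (-0.39), amino acid response genes (-0.19) and amino acid transporters (-0.14). Leukocyte and plasma cell markers were low there too. The interferon, epithelial, smooth muscle and adipocyte lists lay above their wild-type means in that library. The within-group SD had a median of 0.18 over the cytosolic and 0.17 over the mitochondrial enzymes, against 0.15 over all genes. The 1 added to FPKM before the log2 shrinks differences and SDs more in the lower mitochondrial mRNAs, so the classes are not on quite the same scale. The width that set the ATF4 targets apart in RKO cells was not seen here to the same degree, with 0.21 over those 13 enzymes and 0.14 over the other 7. The medians of both classes were positive without knock-out replicate 2 (0.07 and 0.04) or wild-type replicate 3 (0.05 and 0.02).

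**Figure D5:**
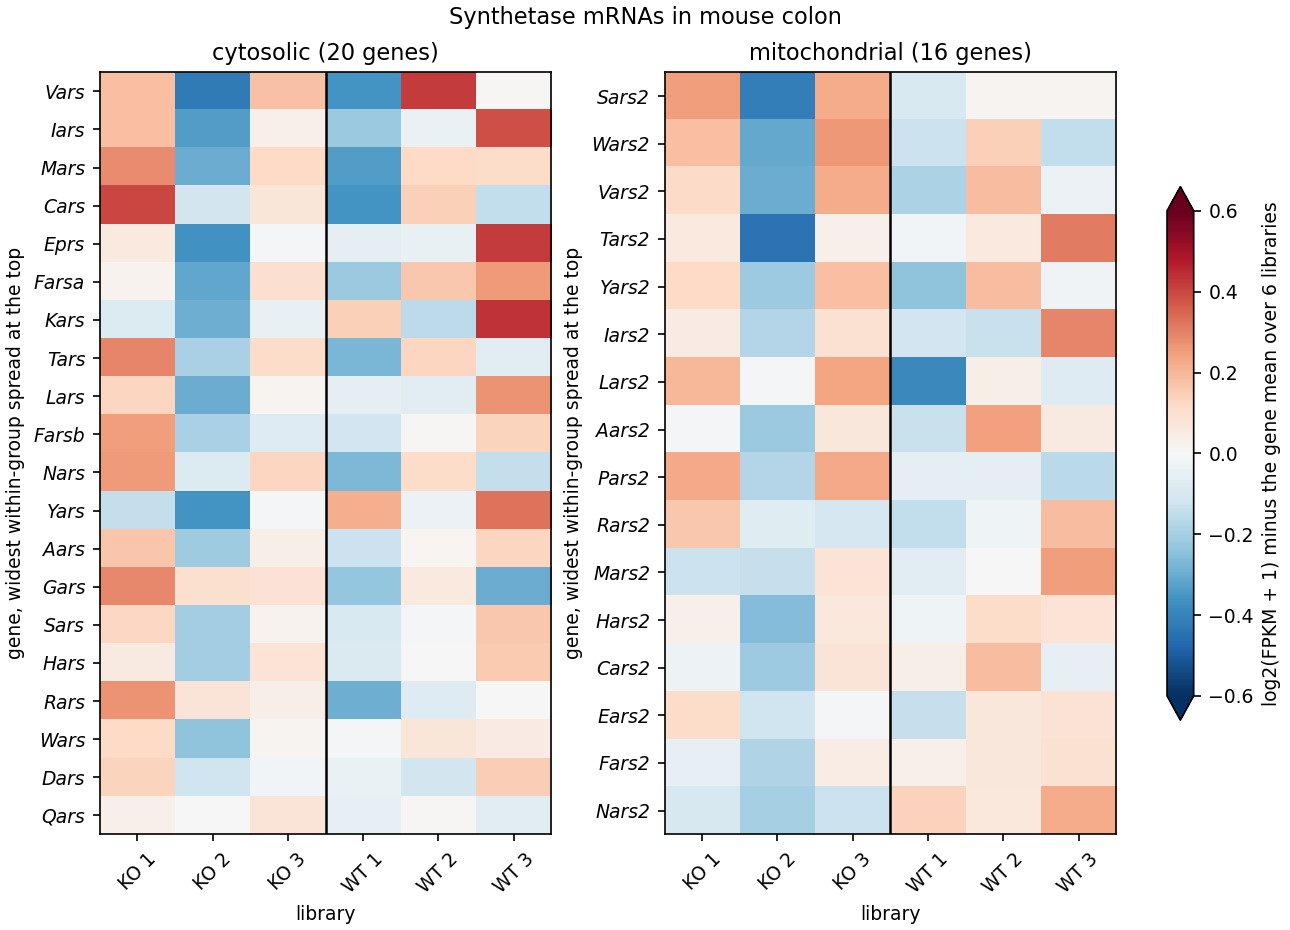
Deviation of log2(FPKM + 1) from each gene's mean over the 6 colon libraries (colour), for the 20 cytosolic (left) and 16 mitochondrial (right) synthetases in rows and the libraries in columns (KO, knock-out; WT, wild-type), with the widest within-group spread at the top. Knock-out replicate 2 is blue in most rows of both panels, being the lowest library for 13 and 12 genes.

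Gars, the glycine enzyme, stood at 86.0, 75.3 and 74.7 FPKM across the knock-outs, against 59.8, 73.3 and 57.1 across the wild types. All knock-out libraries lay above all wild-type ones, with wild-type replicate 2 close to knock-out replicates 2 and 3 (0.31 ± 0.12, adjusted p = 0.396, 95% interval 0.029 to 0.59). Without wild-type replicate 2 the difference was 0.42 and passed (adjusted p = 0.0283), in a fit that called 1045 genes higher and 816 lower. That library stood with the knock-outs on a score of proximal minus distal HOX genes, which mark position along the gut: 3.08, 1.92 and 2.39 across the knock-outs, against -1.60, 2.52 and -4.04 across the wild types. With the score as a covariate, Gars stood at 0.10 (adjusted p = 0.994, limma). Of the wild types, only replicate 2 scored within the knock-out range. Values with the score therefore rest largely on that library, and position and genotype cannot be cleanly told apart.

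Marker lists of other cell types differed between libraries as well, most of all that of adipocytes. All 4 tested adipocyte markers of 6 listed were positive, with a summed level of 56.7 to 129 FPKM in knock-out and 7.58 to 39.1 in wild-type colon. All 6 smooth muscle markers were positive (461 to 739 against 355 to 577), as were all 8 epithelial markers (12870 to 16090 against 7632 to 14950). Leukocyte markers were positive in 2 of 6 (48.6 to 74.6 against 59.5 to 146). None of the marker genes found in the table was at 0 in every library. Their part in the synthetase values was not tested.

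Rars, the arginine enzyme, stood at 54.4, 47.5 and 46.1 FPKM across the knock-outs, against 36.5, 42.6 and 44.9 across the wild types. It was the other member above every wild-type library (0.25 ± 0.11, adjusted p = 0.396, limma). With the position score its difference hardly changed, at 0.249. Nars, the asparagine enzyme, stood at 90.9, 71.6 and 83.2 FPKM across the knock-outs, against 62.8, 82.0 and 68.7 across the wild types. Wild-type replicate 2 lay among the knock-outs (0.20 ± 0.13, adjusted p = 0.512; 0.022 with the position score and 0.31 without that library).

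Yars, the tyrosine enzyme, stood at 18.4, 15.7 and 20.3 FPKM across the knock-outs, against 23.9, 19.9 and 25.8 across the wild types. Wild-type replicates 1 and 3 lay above every knock-out library and replicate 2 did not (-0.34 ± 0.13, adjusted p = 0.396; -0.17 with the position score). Kars stood at 50.1, 43.2 and 51.4 FPKM across the knock-outs, against 58.7, 47.5 and 72.0 across the wild types. Its difference was -0.28 ± 0.16 (adjusted p = 0.459), and 0.0047 once the position score entered the fit. KARS and Kars thus had negative values in both tables, and neither passed. GARS and Gars had opposite signs, and neither passed.

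Of the mitochondrial enzymes, Nars2 for asparagine stood at 3.60, 3.28 and 3.49 FPKM across the knock-outs, against 4.41, 4.13 and 4.73 across the wild types. All knock-out libraries lay below all wild-type ones, and the test was not passed (-0.28 ± 0.095, adjusted p = 0.396, 95% interval -0.51 to -0.056). With the position score Nars2 stood at -0.21. Lars2, the leucine enzyme, stood at 8.86, 7.52 and 9.11 FPKM across the knock-outs, against 5.57, 7.81 and 7.15 across the wild types. Wild-type replicate 2 lay inside the knock-out range (0.28 ± 0.14, adjusted p = 0.412; 0.18 with the position score). Fars2, the phenylalanine enzyme, stood at 15.3, 13.9 and 16.4 FPKM across the knock-outs, against 16.2, 16.7 and 16.9 across the wild types. The groups overlapped at 1 library (-0.12 ± 0.087, adjusted p = 0.538).

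Wars, whose human counterpart is known to be induced by interferon, stood at 49.2, 38.1 and 45.7 FPKM across the knock-outs, against 44.9, 47.6 and 46.8 across the wild types. The knock-outs held both the highest and the lowest value (-0.072 ± 0.11, adjusted p = 0.769, 95% interval -0.33 to 0.18). Beside it, 10 of 10 interferon response genes were positive (median 1.01), at mean deviations of 1.29, 0.73 and 0.95 across the knock-outs, against -0.19, 0.71 and -0.53 across the wild types, and 0 were called. Wars2 stood at 3.42, 2.15 and 3.67 FPKM across the knock-outs, against 2.56, 3.31 and 2.52 across the wild types. It overlapped as well (0.089 ± 0.18, adjusted p = 0.834; -0.11 with the position covariate).

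Aars and Hars had log2 fold changes near 0, with intervals on both sides of it. Aars stood at 28.2, 21.5 and 25.7 FPKM across the knock-outs, against 22.8, 25.2 and 27.5 across the wild types. Its log2 fold change of -0.0078 (95% interval -0.30 to 0.29, adjusted p = 0.982) turned sign when libraries were scaled to the same sum or median-centred. Aars2 stood at 4.19, 3.48 and 4.49 FPKM across the knock-outs, against 3.78, 5.22 and 4.43 across the wild types (-0.11 ± 0.14, adjusted p = 0.716). Knock-out replicate 2 was lowest for both alanine enzymes. Hars stood at 20.6, 17.0 and 21.0 FPKM across the knock-outs, against 18.6, 19.8 and 22.1 across the wild types (-0.046 ± 0.11, adjusted p = 0.869; positive without knock-out replicate 2 or wild-type replicate 3). Hars2 stood at 7.68, 6.10 and 7.86 FPKM across the knock-outs, against 7.33, 8.18 and 7.99 across the wild types (-0.11 ± 0.11, adjusted p = 0.670). Again knock-out replicate 2 was the lowest for both.

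For the same amino acid, the ratio of cytosolic to mitochondrial FPKM was higher in every knock-out than in every wild-type library for 4 of 17 colon pairs, and lower for 1. The share of other gene ratios without overlap was not computed, so these counts cannot be judged against it. For single genes that share was 16.9% in colon. Nars over Nars2 stood at 25.2, 21.8 and 23.8 against 14.2, 19.9 and 14.5, the widest step (0.56 on the log2 scale). Tars over Tars2 stood at 4.09, 4.29 and 3.66 against 2.89, 3.64 and 2.61, with 1 wild-type library just below the lowest knock-out. Cars over Cars2 (0.39) and Rars over Rars2 (0.26) were the other pairs, and Eprs over Pars2 was the lower one (-0.47). Over all 17 pairs, 8 ratios were higher and 9 lower in knock-out, with a median difference of -0.01. EPRS over PARS2 and Eprs over Pars2 were the pair without overlap, and lower, in both tables. Cars, Tars and Eprs were chosen after their values were seen.

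Of the other colon lists, 0 genes were called. The 17 tested amino acid response genes split 8 positive and 9 negative (median -0.03), Atf4 stood at -0.062 ± 0.13 (adjusted p = 0.839), and Ddit4, the gene that fell in RKO cells, stood at 12.3, 13.5 and 15.0 FPKM across the knock-outs, against 24.8, 15.0 and 21.4 across the wild types. Its groups did not overlap either, and it did not pass (-0.53 ± 0.18, adjusted p = 0.396). Without wild-type replicate 2 it passed (-0.73, adjusted p = 0.0107), and with the position score it stood at -0.23 (adjusted p = 0.994). All 4 mitochondrial elongation factor genes were negative in both tables (median -0.18 in colon and -0.04 in RKO cells).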

How the data were processed

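The members and gene lists were chosen with earlier results of these data known. RKO values are called signal: the deposited file is marked FPKM after ComBat, but the authors' columns sum to 9050161 to 9195211, so the test planned for FPKM was kept on another unit. Mouse values are FPKM per the file headers. HISAT, Bowtie2, HTSeq, edgeR and hg19 are listed in the submitters' processing notes, without roles; the mouse build is not given in the sources used here. Each table was taken as log2(deposited value + 1), computed here, and tested with limma 3.58.1 in R 4.3.3 (variance trend, Benjamini-Hochberg over all genes). For GC content and length, 84.1% of RKO symbols matched GENCODE; 8 RKO symbols were repeated. Per-library values are given for the 5 cytosolic and 3 mitochondrial members of lowest p per table, and for WARS, AARS, HARS and their mitochondrial forms. On simulated data, changes of 0.3, 0.5 and 1 (log2) were recovered in 32.7%, 65.1% and 92.3% of cases in the RKO design and in 0, 0 and 73.2% in the colon design. Whether these rates hold under the opposed deviations of the RKO pairs, or the first principal component of colon, was not tested. Alternatives were other pseudocounts, filters, scalings and blocks, and removal of each library. Removal of both libraries numbered 2, and all alternatives for the within-group SD, were added after seeing the data. The sequence table at hand holds no proteins, so none are described.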

Additional observations from a re-analysis of the deposited data

How the results depend on the processing

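In all 18 RKO alternatives 0 synthetases were called (lowest adjusted p 0.1), and of 16 colon alternatives 1 called 1, Gars without wild-type replicate 2. The RKO counts of 60 higher and 118 lower genes did move. Lower calls were 67 with equal sums (59 higher), 59 with median centring (72 higher) and 62 with quantile normalization (69 higher). They were 58 with the GC trend removed (30 higher), and 0 to 9 higher and 1 to 15 lower without 1 library. Same-numbered libraries did not deviate together (r of 0.0811, -0.531 and 0.0629 in RKO cells, -0.453, -0.137 and 0.151 in colon). The replicate block left 0 higher and 1 lower RKO gene and 0 in colon. Blocking on libraries that share equal values left 0 higher and 0 lower, and ZNF280C then had adjusted p = 0.0769 (0.0991 with the replicate block); its call also ended in 5 of 6 fits without 1 library.

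The mitochondrial RKO median was 0.018 with quantile normalization and -0.038 to 0.0075 without 1 library. Cytosolic minus mitochondrial in colon was 0.11 with the position covariate. The ratio of class medians in RKO cells, 4.91 on average, was 5.78 without division by length. The SD of the ATF4 targets was 0.0798, and of the mitochondrial enzymes 0.0375, without both libraries numbered 2, and that of the ATF4 targets 0.12 to 0.23 without 1 library. Colon calls ran from 0 to 1045 higher and 0 to 816 lower without 1 library, and cytosolic calls from 0 to 1. With the position covariate, 8 of 20 cytosolic and 6 of 16 mitochondrial colon enzymes turned sign, among them Kars (from -0.28 to 0.0047), Wars2 (-0.11) and Aars (0.002). Of the members given by library, signs also turned in WARS 0.007 (quantile), AARS2 -0.019 (GC) and Aars 0.016 (equal sums) and 0.008 (median centring). Without 1 library, ranges crossed 0 for WARS (-0.16 to 0.16), AARS (-0.17 to 0.12), AARS2 (-0.019 to 0.073), HARS (-0.036 to 0.061), Wars (-0.15 to 0.031), Wars2 (-0.019 to 0.27), Aars (-0.093 to 0.097) and Hars (-0.10 to 0.046). The causes were not tested.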
